A study of Mus musculus with 12 samples.

Results

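Genes of the integrated stress response and the unfolded protein response were followed in mouse perigonadal white fat, the fat pad around the gonads. The 10 genes were chosen by name, as Ensembl rows of the count files whose GRCm38 symbol is Atf4, Ddit3, Trib3, Asns, Chac1, Psat1, Phgdh, Fgf21, Hspa5 or Xbp1, and all 10 were found among 53379 gene rows. Fat was taken from C57BL/6 mice 9 weeks old, at zeitgeber time 9 of a light-dark cycle, and RNA-seq counts were available for 12 libraries in 4 groups of 3. The groups were wt saline, wt CL, ko saline and ko CL, where wt stands for control littermates and ko for an adipose-specific knockout of the kinase gene Cdk7 (CDK7 aKO). Saline or CL was injected for 7 days. The labels spell the drug as CL alone, which in this field stands for a beta-3-adrenergic agonist, a drug that drives lipolysis. The Cre driver of the knockout is not given in the sources used here. Each library pooled 250 ng of RNA from each of 2 mice, so 6 mice stood behind a group and p-values measure the spread between pools.

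The integrated stress response starts with kinases that phosphorylate the translation factor eIF2 when amino acids run short, when proteins misfold in the endoplasmic reticulum (ER) or when mitochondria are stressed. Most protein synthesis then slows while the transcription factor ATF4 is translated, and ATF4 switches on genes for amino acid synthesis and transport together with its partners CHOP (Ddit3) and TRIB3. The unfolded protein response is the wider ER programme, in which the sensors IRE1, PERK and ATF6 raise ER chaperones such as BiP (Hspa5) through XBP1 and ATF6. ATF4 is controlled largely at translation and XBP1 by splicing of its messenger RNA. Gene counts measure neither step.

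Promoter sequences are shown first, because 5 of the 10 genes carry a known stress element near the start of transcription. RefSeq promoters (GRCm38.p6) were found for all 10 genes, 11 in number because Psat1 has a pair. Each holds 250 bases before the start and 50 from it. The C/EBP-ATF response element (CARE, TGATGNAA, where ATF4 binds with a C/EBP partner) was searched on both strands and was in 3.97% of 32851 mouse promoters of this length. The ER stress response element (ERSE: CCAAT, 9 bases, CCACG) was in 0.119% of them. Capitals mark the CARE of Asns (bases 228 to 235), Trib3 (265 to 272), Chac1 (58 to 65) and Fgf21 (112 to 119) and the ERSE of Hspa5 (186 to 204). In Trib3, Chac1 and Fgf21 the match is on the opposite strand, so the printed letters are its reverse complement. The windows are chr6:7693160-7693459 (Asns, minus strand), chr2:152344011-152344310 (Trib3, minus), chr2:119350992-119351291 (Chac1, plus), chr7:45615441-45615740 (Fgf21, minus) and chr2:34771840-34772139 (Hspa5, plus).
Asns: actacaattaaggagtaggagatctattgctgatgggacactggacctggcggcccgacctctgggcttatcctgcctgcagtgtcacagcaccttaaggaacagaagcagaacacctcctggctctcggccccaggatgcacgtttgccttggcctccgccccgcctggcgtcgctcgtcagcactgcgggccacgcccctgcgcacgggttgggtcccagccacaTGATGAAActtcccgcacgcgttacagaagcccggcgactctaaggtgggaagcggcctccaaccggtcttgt
Trib3: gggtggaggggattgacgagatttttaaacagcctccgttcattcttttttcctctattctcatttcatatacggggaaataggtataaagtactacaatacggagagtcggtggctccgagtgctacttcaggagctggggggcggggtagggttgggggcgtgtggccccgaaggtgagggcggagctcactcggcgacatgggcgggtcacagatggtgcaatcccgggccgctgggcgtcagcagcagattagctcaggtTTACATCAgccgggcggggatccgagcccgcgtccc
Chac1: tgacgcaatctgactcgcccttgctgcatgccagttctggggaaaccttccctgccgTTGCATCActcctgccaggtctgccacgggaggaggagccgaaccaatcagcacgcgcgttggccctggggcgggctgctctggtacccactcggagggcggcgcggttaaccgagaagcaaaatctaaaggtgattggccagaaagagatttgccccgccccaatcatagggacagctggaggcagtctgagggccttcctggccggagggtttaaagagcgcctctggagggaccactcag
Fgf21: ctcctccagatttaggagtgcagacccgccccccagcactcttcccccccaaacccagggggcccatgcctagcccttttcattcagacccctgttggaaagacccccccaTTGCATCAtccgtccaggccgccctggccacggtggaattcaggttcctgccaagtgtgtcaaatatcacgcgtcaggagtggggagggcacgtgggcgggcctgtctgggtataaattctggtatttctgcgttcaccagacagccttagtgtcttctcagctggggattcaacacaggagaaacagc
Hspa5: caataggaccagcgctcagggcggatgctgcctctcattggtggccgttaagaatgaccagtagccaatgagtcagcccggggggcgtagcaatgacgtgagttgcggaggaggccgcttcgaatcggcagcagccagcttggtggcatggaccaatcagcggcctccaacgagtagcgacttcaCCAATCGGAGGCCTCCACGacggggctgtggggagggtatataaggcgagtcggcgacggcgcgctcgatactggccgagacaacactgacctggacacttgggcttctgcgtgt

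Neither element, nor ERSE-II (ATTGG, 1 base, CCACG), the cyclic AMP response element (TGACGTCA) or the core of the unfolded protein response element (TGACGTGG), was in the windows of Atf4, Ddit3, Psat1, Phgdh or Xbp1. ERSE-II was in 0.0365% of all promoters, the cyclic AMP response element in 1.79% and the unfolded protein response core in 0.676%. A match is a description of letters and does not show that a factor bound there. No match says only that these letters are not in this window.

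The CL response of several of these genes differed between the genotypes. In wt fat CL raised Asns, the asparagine-making enzyme, 1.89-fold, while in ko fat it lowered Asns 1.27-fold, so that ko CL libraries had 3.58-fold lower Asns than wt CL libraries. In ko fat CL raised Atf4 (1.37-fold) and Ddit3 (1.33-fold), neither of which was called in wt with TMM scaling, and the difference between the responses was called for both. Phgdh, the first enzyme of serine synthesis, fell in both genotypes, 2.90-fold in wt and 4.01-fold in ko. Hspa5, the main ER chaperone, fell 1.25-fold in wt under CL and was 1.56-fold higher in ko CL than in wt CL.

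Calls were made in edgeR's quasi-likelihood test at a Benjamini-Hochberg adjusted p under 0.05 over 16554 tested genes, which held all 10. CL against saline in wt called 2 members higher (Asns, Fgf21), where 19.6% of tested genes were called higher, and 2 lower (Phgdh, Hspa5), where 17.1% were called lower. Fgf21 did not pass the count filter in a fit of the wt groups alone. CL against saline in ko called 2 members higher (Atf4, Ddit3; background 27.2%) and 3 lower (Asns, Psat1, Phgdh; background 27.5%). Under CL, ko against wt called 2 higher (Ddit3, Hspa5; background 27.6%) and 4 lower (Asns, Chac1, Psat1, Phgdh; background 29.3%). The responses of the genotypes to CL were called different for 6 members, 3 more positive in ko (background 21.8%) and 3 more negative (background 23.6%). These shares are near the background of a large response, so the counts alone do not set the 10 genes apart. With library size alone in place of TMM, CL in wt called 2 higher and 5 lower, ko against wt under CL 4 higher and 2 lower, and the difference 4 and 2. Under that scaling the shares of all tested genes called higher and lower were 8.03% and 48.6% for CL in wt, 22.4% and 33.1% for CL in ko, 52.4% and 13.5% for ko against wt under CL, and 32.5% and 13.7% for the difference.

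Under saline, ko against wt called 2 members lower, Atf4 and Asns, where 6.45% of tested genes were called lower. The same test called 0 members higher under saline, where 7.99% of tested genes were called higher. At an unadjusted p under 0.05, 2 members were higher, where 15.6% of all tested genes were, and 5 lower, where 14% were. DESeq2 called 1 member higher, Hspa5 (8.55% of all genes with its adjusted p), and 3 lower, Psat1 added (7.27%). The members' median log2 fold changes were 0.03 for CL in wt, 0.05 for CL in ko, -0.20 for ko against wt under saline and -0.14 under CL. The median of the difference of responses was -0.15. Over all tested genes the same 5 medians lay between -0.03 and 0.00.

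**Figure D1:**
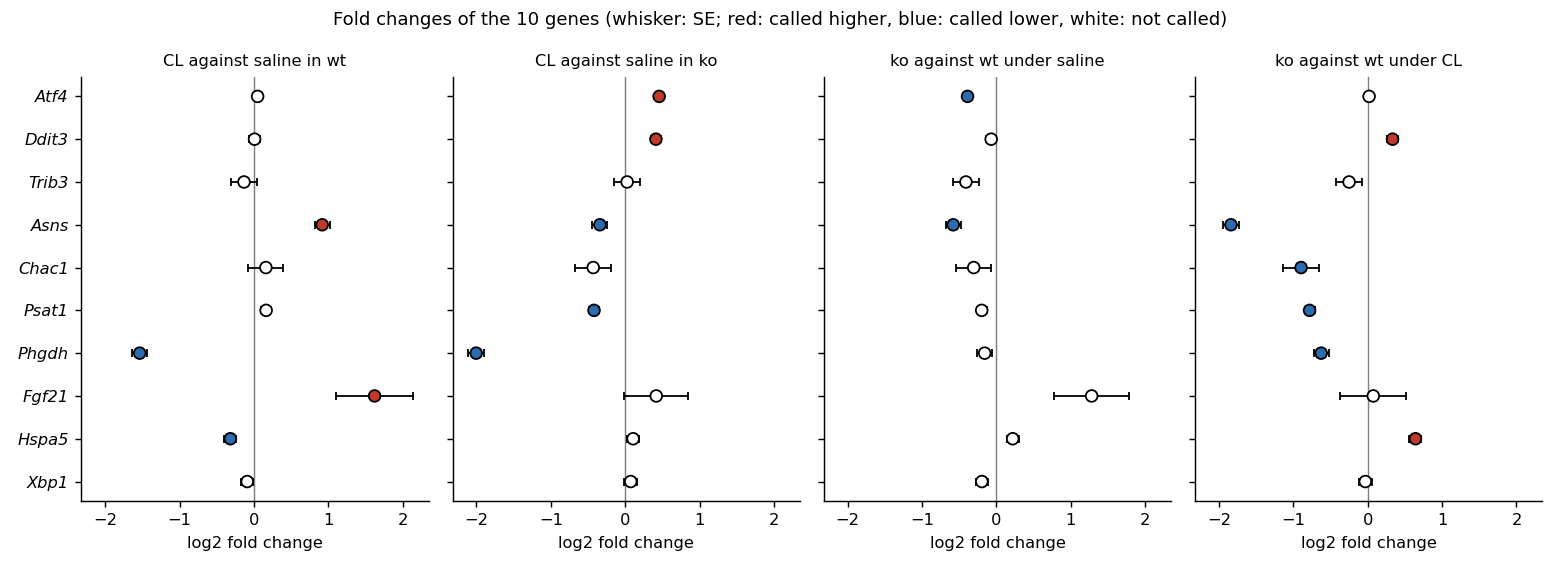
Log2 fold change of each of the 10 genes in the 4 comparisons between groups, with the standard error as whiskers, red where called higher, blue where called lower and white where not called (adjusted p at 0.05). Asns runs from 0.92 for CL in wt to -1.84 for ko against wt under CL, and Phgdh lies well below 0 under CL in both genotypes.

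Levels are given as CPM, gene counts scaled to a common library total, with TMM factors that allow for a few genes taking a large share. Between genes they are compared as CPM per kilobase of exon. In wt saline the order was Phgdh (133 ± 7.1 CPM per kb), Hspa5 (94.7 ± 4.5), Xbp1 (64.7 ± 2.5), Psat1 (54.7 ± 1.2), Atf4 (34.6 ± 0.60), Asns (27.4 ± 1.0), Ddit3 (10.8 ± 0.21), Trib3 (2.51 ± 0.42), Chac1 (1.52 ± 0.22) and Fgf21 (0.201 ± 0.081; SD, n = 3 for each). In ko CL Phgdh had moved to the fifth place at 29.7 ± 3.3 CPM per kb, below Hspa5 (119 ± 6.4), Xbp1 (59.4 ± 6.7), Atf4 (36.3 ± 0.85) and Psat1 (35.6 ± 2.8). The ranges of Atf4 and Psat1 overlapped there, so their order is not resolved.

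**Figure D2:**
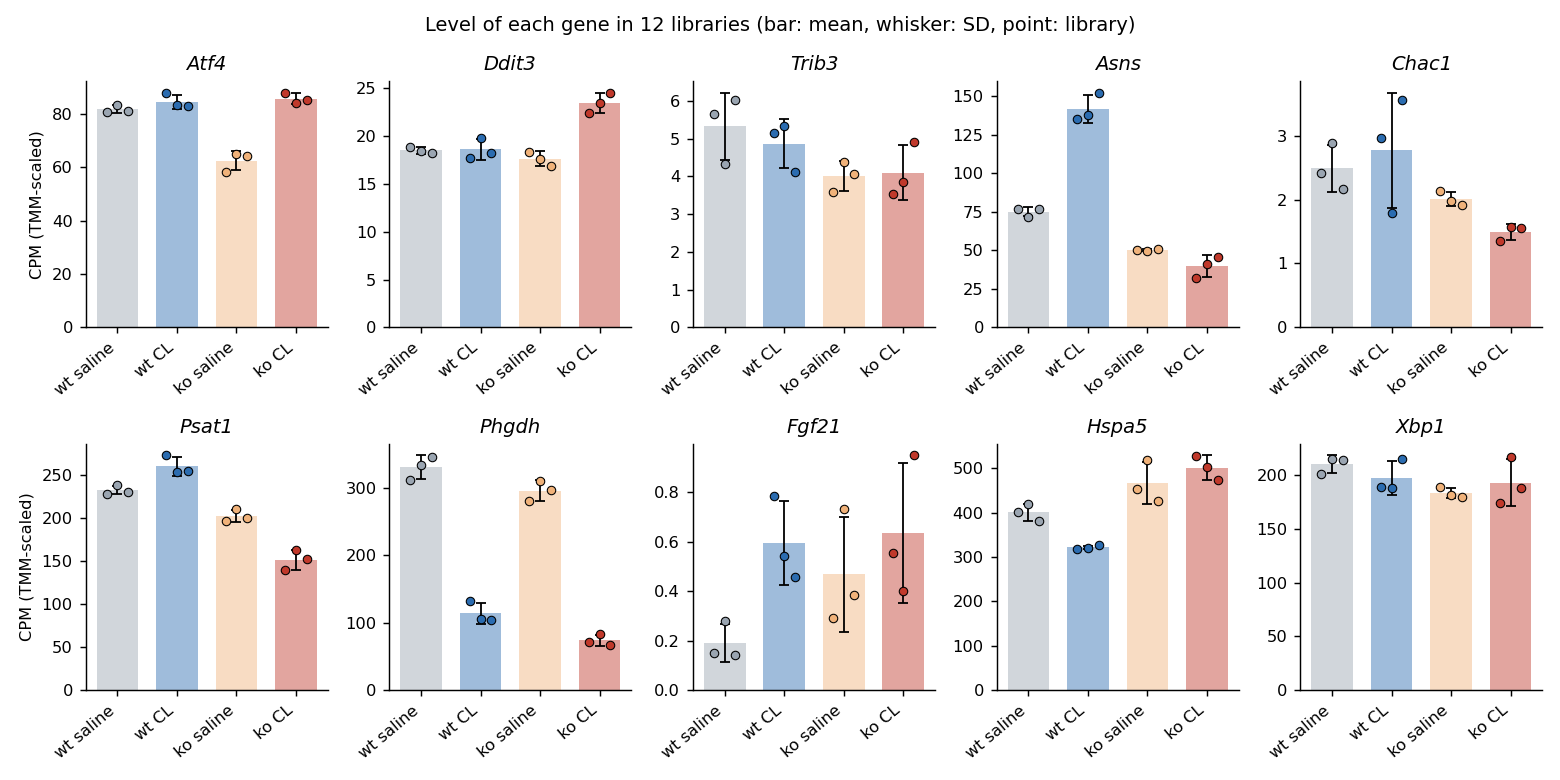
Level of each of the 10 genes in every library (CPM after TMM scaling, a panel per gene with its own axis), in 4 groups of 3 libraries. Bars are group means, whiskers the SD and points the libraries. Asns separates all 4 groups, from 32.1 to 45.7 CPM in ko CL up to 135 to 152 CPM in wt CL.

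Facts that hold for the whole series bear on these values. Libraries held 21892817 to 27985019 gene counts. Cdk7 lay between 11.02 and 23.6 CPM in the 6 ko libraries and between 29.3 and 35.4 CPM in the 6 wt libraries, without overlap (exact two-sided permutation test, p = 0.00216), and matches the titles from which groups were taken. Within ko it was 1.79-fold higher under CL (20.4 ± 2.9 CPM) than under saline (11.4 ± 0.36; SD, n = 3, adjusted p = 1.01e-05). It was thus 2.60-fold lower in ko than in wt under saline and 1.60-fold lower under CL, and its response to CL differed between the genotypes (0.70 ± 0.13, adjusted p = 0.000919). Every comparison with ko CL below carries this smaller gap in Cdk7, whose part in the values was not tested. A genotype characteristic in the labels contradicts 6 of the 12 titles and was not used. Adipocyte markers were high, which shows fat cells but does not tell the fat depot. The summed CPM of 10 such markers was 25505 to 26874 in wt saline and 29398 to 32347 in wt CL. That sum was lower in ko, at 16398 to 17497 under saline and 7814 to 11703 under CL. Macrophage markers (12 genes) summed to 844 to 912 CPM in wt saline, 488 to 650 in wt CL, 807 to 838 in ko saline and, far above, 7727 to 11718 in ko CL. Of the 12, 11 were called higher in ko CL than in ko saline and 1, Lyve1, lower. In bulk tissue, fewer cells of a type and less RNA per cell cannot be told apart, and the part of these shifts in the values below was not tested.

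Atf4 encodes the transcription factor at the head of the programme (chromosome 15, 80255184 to 80257541, plus strand, GRCm38). Its level was 80.7, 83.3 and 81.1 CPM in the wt saline libraries, close to 87.5, 83.2 and 82.7 in wt CL. In ko saline it was 58.2, 64.9 and 64.0 CPM, and in ko CL 87.8, 84.0 and 84.9. The 3 ko saline libraries lay below all other 9. The wt CL libraries overlapped both wt saline and ko CL, while the ko CL libraries lay just above those of wt saline. Atf4 was lower in ko than in wt under saline (log2 fold change -0.39 ± 0.06 SE, adjusted p = 0.00119) and rose under CL in ko (0.46 ± 0.06, adjusted p = 2.11e-05). Under CL the genotypes were not called different (0.02 ± 0.06, adjusted p = 0.796), and CL in wt gave 0.05 ± 0.06 (adjusted p = 0.538). Both were called once libraries were scaled by size alone, Atf4 then being 0.40 higher in ko under CL (adjusted p = 6.54e-05) and lower by -0.27 for CL in wt (adjusted p = 0.0025). The response to CL was larger in ko than in wt by 0.41 ± 0.08 (adjusted p = 0.00117), and the ko CL libraries overlapped the wt CL libraries.

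Ddit3 encodes CHOP, a C/EBP-family factor that ATF4 induces and that is linked to cell death under lasting stress (chromosome 10, 127290774 to 127296288, plus strand). It read 18.9, 18.4 and 18.2 CPM in wt saline, then 17.7, 19.8 and 18.3 in wt CL and 18.4, 17.6 and 16.8 in ko saline. In ko CL it read 22.4, 23.5 and 24.5 CPM, above all other 9 libraries. Ddit3 rose under CL in ko (0.41 ± 0.07, adjusted p = 0.00029) and was higher in ko than in wt under CL (0.33 ± 0.07, adjusted p = 0.00135). For CL in wt, 0.01 with TMM, library size alone called it lower (-0.31, adjusted p = 0.00556). Its response was larger in ko than in wt by 0.40 ± 0.10 (adjusted p = 0.00533). Under saline the genotypes gave -0.07 ± 0.07 (adjusted p = 0.553). The gene overlaps Mars and Gm4189 on the opposite strand, whose reads the reverse-strand counting named in the deposited files keeps apart. Macrophage markers were highest in the same 3 libraries, and their part in the Ddit3 values was not tested.

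Trib3, a pseudokinase that ATF4 and CHOP induce and that feeds back on them, was low, with 1375 counts over all 12 libraries (chromosome 2, 152337422 to 152344032, minus strand). It ranged from 4.32 to 6.01 CPM in wt saline, from 4.12 to 5.32 in wt CL, from 3.59 to 4.39 in ko saline and from 3.53 to 4.91 in ko CL. All 4 groups overlapped, and none of its 5 comparisons was called, the smallest adjusted p being 0.139 for ko against wt under saline (-0.41 ± 0.18). CL in ko, which raised Ddit3, gave 0.03 ± 0.18 for Trib3 (adjusted p = 0.913).

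Asns encodes asparagine synthetase, a classic ATF4 target, and carries the CARE printed above, beginning 23 bases before its RefSeq start (chromosome 6, 7675169 to 7693254, minus strand). It read 76.6, 71.8 and 76.8 CPM in wt saline, against 135, 138 and 152 in wt CL. In ko saline it read 50.4, 49.7 and 50.5 CPM, and in ko CL 32.1, 41.3 and 45.7. The 4 groups did not overlap, in the order wt CL, wt saline, ko saline, ko CL. Asns rose under CL in wt (0.92 ± 0.10, adjusted p = 2.25e-05) and fell under CL in ko (-0.34 ± 0.10, adjusted p = 0.0125). The ko libraries were lower under saline (-0.58 ± 0.10, adjusted p = 0.00318), and more so under CL (-1.84 ± 0.10, adjusted p = 1.39e-08). The CL responses differed by -1.26 ± 0.14 (adjusted p = 1.78e-05), the largest in size of the 6 called differences. Summed adipocyte markers followed the same order of groups, from 29398 to 32347 CPM in wt CL to 7814 to 11703 in ko CL, and their part in the Asns values was not tested.

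Psat1, the phosphoserine aminotransferase at the second step of serine synthesis, had the same order of groups as Asns over a narrower range (chromosome 19, 15904678 to 15947337, minus strand). Its libraries read 229, 238 and 231 CPM in wt saline, then 273, 254 and 254 in wt CL, 197, 211 and 201 in ko saline and 140, 163 and 152 in ko CL. No groups overlapped. Psat1 fell under CL in ko (-0.42 ± 0.07, adjusted p = 0.000193) and was lower in ko than in wt under CL (-0.78 ± 0.07, adjusted p = 6.47e-07). The CL response in wt, 0.16 ± 0.07, missed the threshold (adjusted p = 0.0754), as did ko against wt under saline (-0.20 ± 0.07, adjusted p = 0.0669). The latter was called lower by DESeq2 (-0.19, adjusted p = 0.026) and in a fit of the 2 groups alone (-0.20, adjusted p = 0.0396). The responses differed by -0.58 ± 0.10 (adjusted p = 0.000318). Gm3329 overlaps Psat1 on the opposite strand.

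Phgdh, phosphoglycerate dehydrogenase, makes the first committed step from glycolysis to serine and was the highest of the 10 per length in wt saline (chromosome 3, 98313170 to 98339990, minus strand). It read 312, 334 and 347 CPM in wt saline and 281, 311 and 297 in ko saline. Under CL it read 132, 106 and 104 CPM in wt and 71.8, 82.8 and 66.9 in ko. All 6 CL libraries lay below all 6 saline libraries, and ko CL lay below wt CL. Phgdh fell 2.90-fold in wt (SE of the log2 value 0.10, adjusted p = 9.02e-07) and 4.01-fold in ko (SE 0.10, adjusted p = 1.13e-08). It was lower in ko than in wt under CL (-0.63 ± 0.10, adjusted p = 0.000172), and the fall was steeper in ko (-0.47 ± 0.14, adjusted p = 0.0174). With library size alone as the scaling, the last 2 values were -0.24 each and no longer called (adjusted p = 0.0569 and 0.199). A pseudogene, Phgdh-ps1, could take some of its reads.

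**Figure D3:**
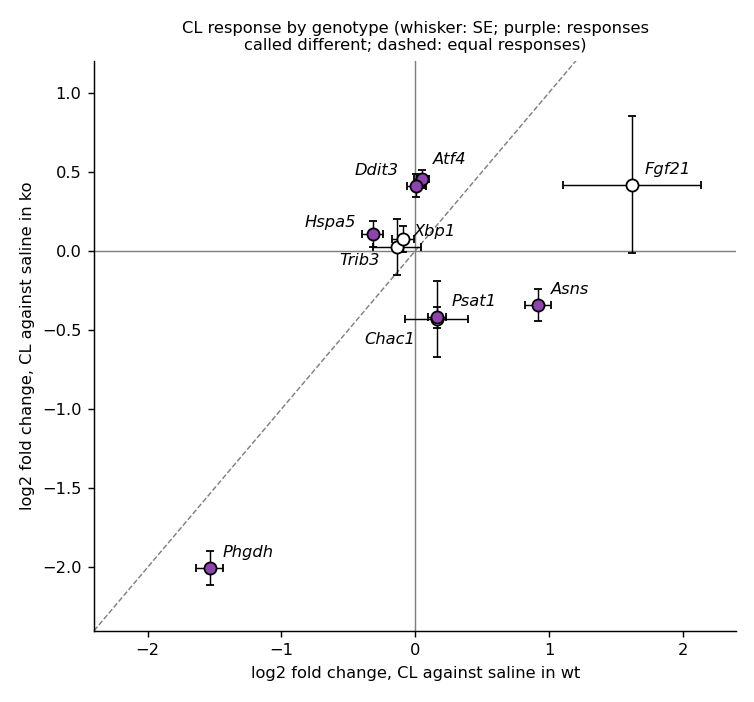
Log2 fold change of CL against saline in ko (vertical axis) against that in wt (horizontal axis) for the 10 genes, with standard errors as whiskers, purple where the responses were called different and a dashed line for equal responses. Asns lies to the lower right (0.92 in wt, -0.34 in ko), Atf4 and Ddit3 lie above the line near 0 in wt, and the open symbol of Chac1 sits behind Psat1.

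Chac1, a glutathione-degrading enzyme that ATF4 and CHOP induce, had 648 counts over all libraries (chromosome 2, 119351229 to 119354381, plus strand). It ranged from 2.17 to 2.88 CPM in wt saline, from 1.79 to 3.56 in wt CL, from 1.91 to 2.14 in ko saline and from 1.35 to 1.57 in ko CL. The ko CL libraries were the lowest and did not overlap any other group. Chac1 was lower in ko than in wt under CL (-0.90 ± 0.24, adjusted p = 0.00681), a call lost with library size alone (-0.51, adjusted p = 0.0762). The other comparisons were not called, among them CL in ko (-0.43 ± 0.24, adjusted p = 0.15).

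Fgf21, the stress hormone that ATF4 induces and that acts on energy balance, was near the detection limit, with 138 counts in all (chromosome 7, 45613886 to 45615490, minus strand). The wt saline libraries held 4, 7 and 4 counts and the wt CL libraries 14, 10 and 9. The ko saline libraries held 8, 20 and 12 and the ko CL libraries 16, 12 and 22. In CPM the mean was 0.191 ± 0.077 for wt saline, 0.595 ± 0.17 for wt CL, 0.468 ± 0.23 for ko saline and 0.635 ± 0.28 for ko CL (SD, n = 3). Fgf21 was higher under CL in wt (1.62 ± 0.52, adjusted p = 0.0258), and this rested on 15 against 33 counts. In a fit of the wt groups alone it did not pass the count filter and was not tested. Without wt saline 1, wt saline 3, wt CL 1 or wt CL 2 the call was lost, at adjusted p of 0.0835, 0.0845, 0.0923 and 0.0505. In ko, CL gave 0.42 ± 0.43 (adjusted p = 0.437), and the responses were not called different (-1.20 ± 0.67, adjusted p = 0.165).

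Hspa5 encodes BiP, the ER chaperone that holds the 3 sensors inactive, and its promoter carries the ERSE printed above (chromosome 2, 34771970 to 34777547, plus strand). It read 402, 419 and 381 CPM in wt saline, against 319, 320 and 326 in wt CL. In ko saline it read 452, 519 and 427 CPM, and in ko CL 528, 503 and 474. The wt CL libraries were the lowest, the wt saline libraries came next, and the ko groups overlapped each other above both. Hspa5 fell under CL in wt (-0.32 ± 0.08, adjusted p = 0.00782) and was higher in ko than in wt under CL (0.64 ± 0.08, adjusted p = 1.73e-05). Under saline ko against wt gave 0.22 ± 0.08 (adjusted p = 0.0871), a difference called by DESeq2 and with library size alone (0.37, adjusted p = 0.00785), and CL in ko gave 0.11 ± 0.08 (adjusted p = 0.282). The responses differed by 0.42 ± 0.11 (adjusted p = 0.00841), with a fall in wt and no call in ko.

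Xbp1 encodes the transcription factor that IRE1 activates by splicing, and the counts do not separate its spliced form (chromosome 11, 5520659 to 5525893, plus strand). It read 201, 215 and 214 CPM in wt saline, then 189, 188 and 215 in wt CL, 189, 181 and 180 in ko saline and 174, 217 and 188 in ko CL. In edgeR's test with TMM over all 12 libraries 0 of its 5 comparisons were called, the smallest adjusted p being 0.137 for ko against wt under saline (-0.20 ± 0.08). That comparison was called when only the 2 groups were fitted (-0.19, adjusted p = 0.046). With library size as the scaling 3 others were called, CL in wt (-0.41, adjusted p = 0.00125), ko against wt under CL (0.35, adjusted p = 0.00206) and the difference (0.40, adjusted p = 0.0143). Plasma cells make much XBP1. Xbp1 was highest in ko CL 2 at 217 CPM, close to wt saline 2 and wt CL 3 at 215 CPM each. That ko CL library also had the highest summed B and plasma cell markers. Jchain read 314 CPM there against 30.0 and 85.9 in ko CL 1 and 3, and Mzb1 26.4 against 0.520 and 1.60. Sdc1 of the same list went the other way, at 64.3 CPM there against 93.7 and 83.8. The 10 B and plasma cell markers summed to 3014 CPM in that library and to 192 to 938 CPM in the other 11. Without it CL against saline in ko gave -0.04 for Xbp1 (adjusted p = 0.655), against 0.07 ± 0.08 (adjusted p = 0.479) with it. The part of plasma cells in the Xbp1 values was not tested.

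The gene lists from here on were written with earlier results of these data known, so their counts are descriptions and not independent support. Upstream of ATF4, 19 genes of eIF2, its kinases, its phosphatases and eIF2B were tested. CL in wt raised 10 of them and lowered 2, against 19.6% and 17.1% of all tested genes. Ppp1r15b, the constitutive eIF2 phosphatase subunit, rose by 0.48 ± 0.08 (adjusted p = 0.000338), and the kinase genes Eif2ak4 (GCN2) and Eif2ak1 (HRI) by 0.43 ± 0.08 and 0.40 ± 0.07. Eif2ak3 (PERK) gave -0.26 ± 0.08 (adjusted p = 0.0153), a call lost without wt CL 1 (-0.22, adjusted p = 0.0663). In ko, CL raised 4 and lowered 6 (27.2% and 27.5% of all genes), with Eif2b3, a subunit of the exchange factor eIF2B, lower by -0.83 ± 0.08 (adjusted p = 1.42e-06) and Eif2b5 by -0.42 ± 0.06. The responses were called different for 8 genes, 7 of them more negative in ko, where 23.6% of all genes were. With library size alone, 8.03% of all genes were called higher and 48.6% lower in wt, and 22.4% and 33.1% in ko. For the difference the shares were 32.5% and 13.7%. Under that scaling the wt count of the list became 0 higher and 7 lower and the ko count 2 and 6. The difference was called for 3 genes more positive and 4 more negative in ko, and the median of all genes was -0.33 in wt. For CL in wt under this scaling, Ppp1r15b at 0.16, Eif2ak4 at 0.11 and Eif2ak1 at 0.08 lay above that median but were not called.

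Among 12 tested partners and further regulators of the ATF4 programme, CL in ko raised 1 and lowered 6, against 27.2% and 27.5% of all tested genes. The gene raised was Atf3, an immediate stress-response factor, which read 282, 153 and 178 CPM in ko CL and 4.401 to 9.83 CPM in the other 9 libraries (4.49 ± 0.22 against ko saline, adjusted p = 7.94e-09). Stc2, a secreted glycoprotein of the PERK branch, fell by 1.75 in ko (SE 0.09, adjusted p = 1.34e-08) and by 0.88 in wt (SE 0.09, adjusted p = 1.73e-05). Eif4ebp1, a translation repressor under ATF4, fell in ko (-0.99 ± 0.12, adjusted p = 1.31e-05), and so did Vldlr (-0.92 ± 0.09). Against wt CL, ko CL called 2 higher and 8 lower (27.6% and 29.3% of all genes), among them, lower, Atf5 (-0.87 ± 0.11) and Nupr1 (-0.86 ± 0.09). CL in wt called 1 higher, Cebpb (1.09 ± 0.28, adjusted p = 0.0079, at a mean of 2.57 CPM, named after its values were seen), and 1 lower, Stc2. Summed early response and heat shock markers stood at 184 to 257 CPM in ko CL, a range that overlapped 148 to 191 in ko saline. They stood at 120 to 131 in wt saline and 124 to 129 in wt CL. Of these 9 markers CL in ko called 2 higher and left 7 not called, where 27.2% of all genes were called higher. Ko against wt under CL called 5 of the 9 higher and 0 lower, against 27.6% and 29.3% of all genes. Fos read 63.1, 36.9 and 40.4 CPM in ko CL and 7.75 to 15.8 in ko saline. Junb read 6.03 to 6.38 against 1.38 to 3.84, while Egr1 overlapped, at 24.7 to 42.7 against 24.2 to 52.7. Summed macrophage markers were also highest in ko CL, at 7727 to 11718 CPM against 807 to 838 in ko saline. The part of the macrophage, early response and heat shock markers in the Atf3 values was not tested. The ATF4 partners and stress regulators, scaled by library size alone, gave 1 higher and 7 lower for CL in wt and 3 and 5 for ko against wt under CL. The shares of all genes were 8.03% and 48.6% for CL in wt, and 52.4% and 13.5% for ko against wt under CL.

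The 16 other tested enzymes of serine, glycine, proline and asparagine synthesis and one-carbon metabolism moved both ways. CL in wt raised 6 and lowered 2, against 19.6% and 17.1% of all tested genes, and CL in ko raised 7 and lowered 5, against 27.2% and 27.5%. Psph, the last enzyme of serine synthesis, rose in wt (0.98 ± 0.12, adjusted p = 5.58e-05), from 26.4, 25.7 and 22.3 CPM to 50.9, 42.1 and 53.4, and read 21.9, 30.2 and 29.5 CPM in ko CL. Aldh1l1, the cytosolic folate dehydrogenase, rose in wt (0.68 ± 0.12) and fell in ko (-0.73 ± 0.12), a difference of -1.42 ± 0.17 (adjusted p = 3.18e-05). In the opposite direction, Mthfd1l of mitochondrial one-carbon metabolism (1.01 ± 0.17), the aspartate aminotransferase Got1 (1.34 ± 0.10) and the proline enzyme Aldh18a1 (0.78 ± 0.07) rose under CL in ko. Of the 3 steps from glycolysis to serine in wt under CL, Phgdh fell, Psat1 gave 0.16 without a call and Psph rose. Scaling by library size alone gave 2 of these enzymes higher and 5 lower for CL in wt, against 8.03% and 48.6% of all genes.

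Amino acid transporters under ATF4 gave 2 higher and 3 lower of 10 tested for CL in wt (19.6% and 17.1% of all tested genes) and 4 higher and 4 lower in ko (27.2% and 27.5%). Slc3a2, the heavy chain of several transporters, fell in wt (-0.31 ± 0.06) and rose in ko (0.56 ± 0.06), a difference of 0.88 ± 0.09 (adjusted p = 4.97e-06). Slc1a5, a glutamine transporter, fell in ko (-1.11 ± 0.11, adjusted p = 1.94e-06). Under saline Slc7a5, the light chain of a leucine transporter, was higher in ko than in wt (1.12 ± 0.19, adjusted p = 0.00277). Summed duct and ciliated epithelium markers were also higher there, at 108 to 151 CPM in ko saline against 16.2 to 55.8 in wt saline. Their part in the Slc7a5 values was not tested. The amino acid transporters under ATF4, scaled by library size alone, gave 0 higher and 5 lower for CL in wt, against 8.03% and 48.6% of all genes.

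Cytosolic tRNA synthetases, many of them ATF4 targets, were called higher under CL in wt for 11 of 20 genes, against 19.6% of all tested genes, with the remaining 9 not called. Gars rose by 0.71 ± 0.08 (adjusted p = 2.31e-05), Iars by 0.48 ± 0.07 and Yars by 0.42 ± 0.07. In ko, CL raised 4 and lowered 3 (27.2% and 27.5% of all genes). The CL response was more negative in ko for 9 of 20, against 23.6% of all genes, among them Gars (-0.69 ± 0.11) and Yars (-0.53 ± 0.10). With library size alone the count for CL in wt turned to 1 higher and 9 lower, and that for ko against wt under CL turned from 1 higher and 9 lower to 15 higher. The ko count for CL became 3 and 8, and the difference of responses 4 more positive and 2 more negative. Under that scaling 8.03% of all genes were called higher and 48.6% lower for CL in wt, and 22.4% and 33.1% for CL in ko. The shares were 52.4% and 13.5% for ko against wt under CL, and 32.5% and 13.7% for the difference. Gars stayed called higher for CL in wt, while Iars at 0.16 and Yars at 0.10 were not called.

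**Figure D4:**
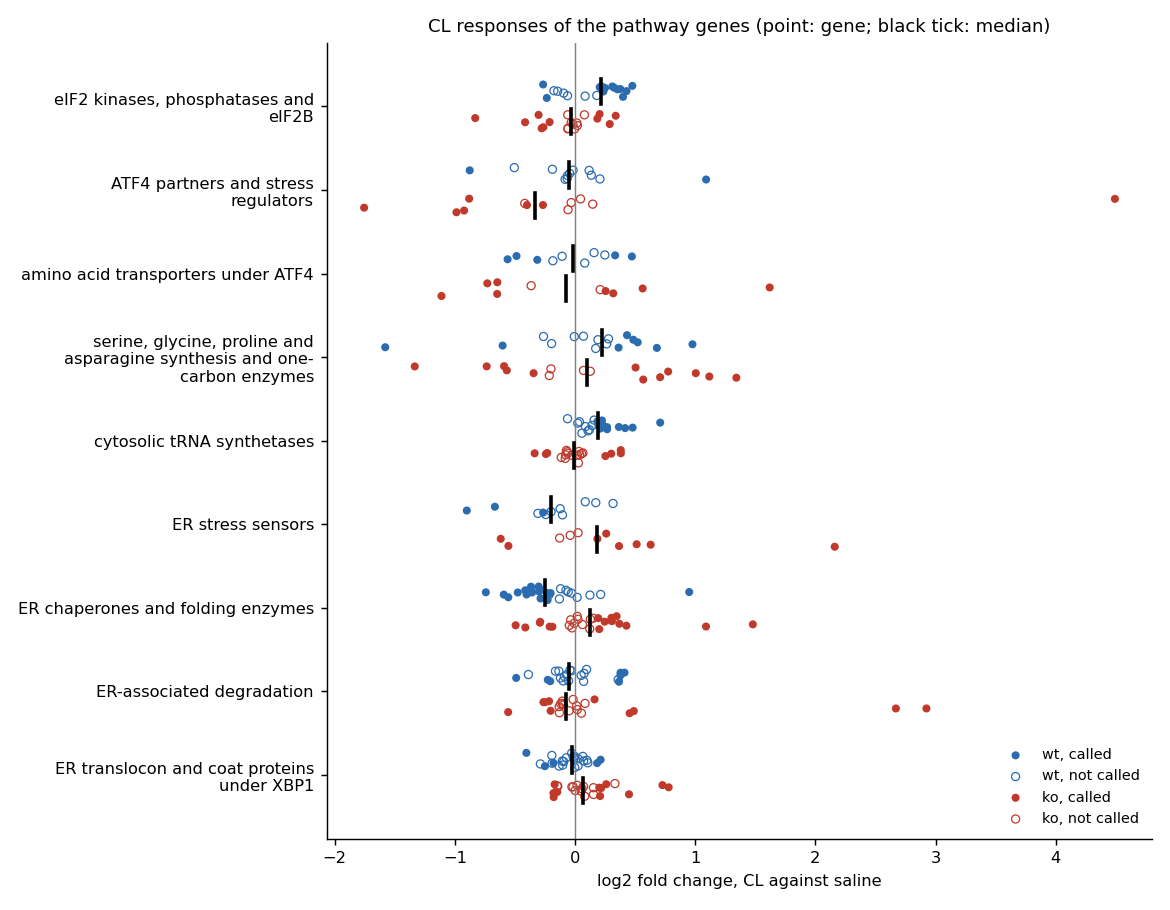
Log2 fold change of CL against saline for every tested gene of 9 pathway lists, members left out, in wt (blue) and in ko (red), filled where called, with a black tick at the list's median. The ER chaperones have a median of -0.25 in wt and 0.12 in ko, and the tRNA synthetases of 0.19 in wt and near 0 in ko; with library size alone the wt median of the tRNA synthetases turned to -0.12.

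On the ER side, 27 chaperones and folding enzymes other than Hspa5 were tested, and CL in wt lowered 15 and raised 1, against 17.1% and 19.6% of all tested genes. P4hb, a protein disulfide isomerase, fell by 0.59 (SE 0.07, adjusted p = 3.46e-05), Pdia4 by 0.55 (SE 0.07) and Sdf2l1 by 0.74 (SE 0.19, adjusted p = 0.00759). The gene raised was Dnajb9, an IRE1-XBP1 target that assists BiP, at 0.95 ± 0.07 (adjusted p = 1.32e-06), from 31.4 to 36.9 CPM in wt saline to 64.2 to 66.4 in wt CL. In ko, CL raised 11 and lowered 6 (27.2% and 27.5% of all genes), with Ero1lb, an oxidase of disulfide bond formation, higher by 1.48 ± 0.11 (adjusted p = 2.13e-07) and Sdf2l1 by 1.09 ± 0.17. Ko CL against wt CL called 19 higher, against 27.6% of all genes, and 2 lower (Creld1 and Dnajb9), against 29.3%. The list's median was -0.25 for CL in wt, 0.12 for CL in ko and 0.49 for ko against wt under CL. Without ko CL 2, the library with the highest summed plasma cell markers, CL in ko called 8 higher and 5 lower, and ko against wt under CL 19 and 2. Over all 16854 genes tested in that fit, CL in ko called 4058 higher and 4612 lower, against 4497 and 4546 of 16554 with all libraries. Ko against wt under CL called 4343 and 4663, against 4561 and 4847. The part of plasma cells in the list's counts was not tested.

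Calr, the lectin chaperone calreticulin, showed the pattern by library, at 374, 394 and 369 CPM in wt saline, then 296, 275 and 283 in wt CL, 413, 436 and 398 in ko saline and 575, 487 and 523 in ko CL. Its CL responses differed by 0.76 ± 0.11 (adjusted p = 8.76e-05). Under CL, summed macrophage and fibroblast markers moved in the same direction as this list's median in each genotype. Under saline, ko against wt called 6 of the list higher and 1 lower, against 7.99% and 6.45% of all genes. That comparison called 0 of 12 macrophage markers, and of 7 fibroblast and progenitor markers 1 higher and 1 lower. Fibroblast and progenitor markers (7 genes) summed to 2422 to 2598 CPM in wt saline, 1390 to 1653 in wt CL, 2232 to 2532 in ko saline and, highest, 2965 to 3558 in ko CL. Of these 7, CL in wt called 0 higher and 6 lower (19.6% and 17.1% of all genes). CL in ko called 3 higher and 1 lower (27.2% and 27.5%). Dpp4 of that list read 34.9 to 43.9 CPM in ko CL, below 53.7 to 62.1 in ko saline. The part of macrophage and fibroblast markers in the chaperone values was not tested.

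Of 11 tested ER stress sensors and their processing factors, CL in wt lowered 3 (Creb3l1, Creb3l2 and Eif2ak3, the last not without wt CL 1) and CL in ko raised 6 and lowered 2. With TMM, the shares of all tested genes raised and lowered were 19.6% and 17.1% in wt and 27.2% and 27.5% in ko. They hold for the TMM counts of the other lists of this paragraph too. Ern1, which encodes IRE1, rose in ko (0.63 ± 0.09, adjusted p = 6.04e-05) and was higher in ko than in wt under CL (0.98 ± 0.09, adjusted p = 1.18e-06), where 7 of the 11 were called higher (27.6% of all genes). Nfe2l1, an ER-anchored factor for proteasome genes, fell in ko (-0.55 ± 0.07, adjusted p = 1.44e-05). ER-associated degradation gave 4 higher and 3 lower of 22 for CL in wt and 5 and 5 in ko. Wfs1, the ER membrane protein wolframin, had the largest increase of that list among genes above 5 CPM, at 136, 90.1 and 122 CPM in ko CL and 13.6 to 20.1 in the other 9 libraries (2.67 ± 0.15 against ko saline, adjusted p = 1.59e-08). Derl3, a lower gene named after its values were seen, rose from 0.448 to 3.43 CPM (2.92 ± 0.52, adjusted p = 0.000424). Summed B and plasma cell markers were highest in ko CL 2, and their part in the Derl3 values was not tested. Macrophage markers were highest in ko CL, and their part in the Ern1 and Wfs1 values was not tested. The ER translocon and coat proteins (24 tested) gave 2 higher and 3 lower in wt and 7 and 4 in ko, with the signal peptidase genes Sec11c (0.78 ± 0.07) and Spcs3 (0.73 ± 0.07) rising in ko. ER-associated degradation, scaled by library size alone, gave 0 higher and 17 lower for CL in wt and 4 and 10 in ko. Of all tested genes, that scaling called 8.03% higher and 48.6% lower for CL in wt, and 22.4% and 33.1% in ko. Under that scaling the ER translocon and coat proteins gave 0 and 21 in wt and 4 and 6 in ko, and the ER stress sensors 0 and 9 in wt and 3 and 3 in ko. The ER chaperones and folding enzymes gave 1 and 24 in wt, 7 and 6 in ko, and 24 and 0 for ko against wt under CL. For that last comparison the scaling called 52.4% of all genes higher and 13.5% lower.

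Genes with the pattern most like a member were sought among 13853 tested protein-coding genes, by the root mean square difference of centred log2 CPM over the 12 libraries. This was done for the 3 members whose group means spanned at least 1 log2 unit. Nearest to Asns were Chpt1 (0.113), Tlcd1 (0.126) and Pccb (0.132). Nearest to Phgdh were Plagl1 (0.182), Tln2 (0.213) and Ehd3 (0.215), and nearest to Fgf21 Sh3bgrl2 (0.409), a looser match at its low counts.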

How the data were processed

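RNA-seq gene counts of 12 mouse fat libraries were read as deposited. The authors made these counts with STAR and HTSeq on GRCm38, per the submitters' processing notes. Their versions and the gene models used are not stated in those notes. File names state reverse-strand counting. HTSeq's 5 summary lines (12.5% to 17.2% of counted reads, median 13.4%) were left out, and 53274 of 53379 gene rows matched GENCODE M21.

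Counts were tested with edgeR 4.0.16 in R 4.3.3: TMM, filterByExpr with a minimum count of 10 (16554 genes), quasi-likelihood test, 1 mean per title group over 12 libraries, no covariate, 8 residual degrees of freedom, Benjamini-Hochberg at 0.05. Standard errors are the size of the log2 fold change divided by the root of the F statistic. CPM are TMM-scaled. No library repeats another within sampling noise (chi-square per degree of freedom 7.44 to 60.3, highest in ko CL). The fit was tested on simulated data for CL in wt, with changes put into genes above a floor of mean counts. It called 60% of 100 genes changed 1.5-fold, 97% of 100 changed 3-fold, and 6 unchanged genes. Far fewer genes were changed there than the 3249 and 2836 called in the real comparison. The adjusted threshold is stricter with fewer changed genes, so these shares do not carry over to the real data. In the simulated setting a change of 1.5-fold could go uncalled. Alternatives were RLE factors, library size alone, no filter, DESeq2 1.42.0, a fit of the compared groups, a replicate block and leaving out each library.

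The 10 members and all lists were chosen with earlier results of these data known. Named list genes were, per list and comparison, up to 3 called genes per direction with the largest change and a mean of at least 5 CPM. The list genes not tested were Gdf15 (56 counts in all), Adm2 (0), Ern2 (1) and Hm13, whose symbol was not matched. Marker lists covered macrophages, B and plasma cells, adipocytes, duct and ciliated epithelium, mesothelium, endothelium, fibroblasts and progenitors, neutrophils and mast cells, T and natural killer cells, and early response genes.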

Additional observations from a re-analysis of the deposited data

Results flagged for a closer look

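For 6 of the 10 genes the response to CL differed between the genotypes in the test of the difference itself (edgeR's quasi-likelihood test, Benjamini-Hochberg adjusted over 16554 genes). Over all tested genes 21.8% were more positive in ko and 23.6% more negative, so the count alone does not set these genes apart. The response was more positive in ko for Atf4 by 0.41 (SE 0.08, adjusted p = 0.00117), for Ddit3 by 0.40 (SE 0.10, adjusted p = 0.00533) and for Hspa5 by 0.42 (SE 0.11, adjusted p = 0.00841). It was more negative in ko for Asns (-1.26, SE 0.14, adjusted p = 1.78e-05), Psat1 (-0.58, SE 0.10, adjusted p = 0.000318) and Phgdh (-0.47, SE 0.14, adjusted p = 0.0174). The Phgdh difference was not called with library size alone (-0.24, adjusted p = 0.199).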

How the results depend on the processing

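Of 50 log2 fold changes (10 genes, 5 comparisons), 49 kept direction and call with RLE factors and 49 without the filter, 47 with DESeq2, 34 with library size alone and, of 38, 35 in a fit of the compared groups. Library size alone moves the median of all genes to -0.33 (CL in wt), -0.10 (CL in ko), 0.15 (ko against wt under saline), 0.39 (under CL) and 0.20 (difference of responses). It turned these genes' direction. In wt under CL: Atf4 -0.27, Ddit3 -0.31, Chac1 -0.16 and Psat1 -0.15. In ko under CL: Trib3 -0.062 and Xbp1 -0.011. In ko against wt: Ddit3 0.084 under saline, Trib3 0.13 and Xbp1 0.35 under CL. Ddit3 in wt under CL, at 0.01, also turned with RLE factors (-0.011), no filter (-0.031), DESeq2 (-0.011) and the compared groups alone (-0.016). With library size alone, members called lower under CL in wt went from 2 to 5, called higher in ko under saline from 0 to 1, and in ko under CL from 2 to 4 higher and from 4 to 2 lower. In the fit of the compared groups, members called higher under CL in wt went from 2 to 1, since Fgf21 was no longer tested, and called lower in ko under saline from 2 to 4. DESeq2 called 1 higher and 3 lower in ko under saline, Psat1 added to the lower.

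Leaving out 1 library gave 1 to 2 members called higher under CL in wt, with Fgf21 lost. It kept 342 of 360 values, and the called directions did not turn. Ranges that crossed 0 were, for CL in wt, Ddit3 -0.039 to 0.042 and Chac1 -0.064 to 0.39. For CL in ko they were Trib3 -0.16 to 0.095, Xbp1 -0.045 to 0.12 and Fgf21 -0.0025 to 0.85. For ko against wt under CL they were Fgf21 -0.32 to 0.32, Xbp1 -0.13 to 0.035 and Atf4 -0.0050 to 0.044, and for the difference Trib3 -0.0042 to 0.29. Without wt CL 2 the Chac1 difference was called (-0.82, adjusted p = 0.0349). Over all genes, library size alone gave 1329 higher and 8048 lower for CL in wt (3249 and 2836 with TMM), 3733 and 506 for ko against wt under saline (1323 and 1068), 8667 and 2237 under CL (4561 and 4847), and 2267 more negative differences (3903). Under saline, leaving out 1 library gave down to 509 higher and 551 lower. The replicate block changed the direction or call of 0 of the 50 values. Deviations of log2 CPM from the group means correlated at -0.36 to 0.18 between same-numbered libraries, over 18 pairs, 2 of them over 0.1. By that correlation 4 of 12 libraries lay nearest to their own number among the other groups, so the numbers were not treated as pairs. The cause of these shifts was not tested. Low counts limit Fgf21, Chac1 and Trib3.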

Other observations

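The marker lists not given above for all 4 groups moved as follows. Endothelial markers (6 genes) summed to 927 to 955 CPM in wt saline, 1135 to 1438 in wt CL, 829 to 878 in ko saline and, lowest, 507 to 665 in ko CL. Mesothelial markers (7 genes) summed to 292 to 362, 134 to 160, 215 to 344 and 175 to 229 CPM in the same order of groups. Neutrophil and mast cell markers (6 genes) stood at 105 to 114 CPM in ko CL and 44.4 to 60.3 in the other groups. T and natural killer cell markers (6 genes) stayed between 4.64 and 14.4 CPM in every library. Duct and ciliated epithelium markers (10 genes) summed to 108 to 151 CPM in ko saline, 16.2 to 55.8 in wt saline, 3.51 to 7.72 in wt CL and 6.73 to 18.9 in ko CL. In wt CL Ccdc153, Mmp7 and Pax2 of that list had no counts, and in ko CL Pax2 had none. The part of that list in the values of ko against wt under saline was not tested.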
